A study of Mus musculus with 6 samples.

Results

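The genes described here are 8 markers of Schwann cells and their myelin, read in healing flexor digitorum longus (FDL) tendons: *Mbp*, *Pmp22*, *Mag*, *Prx*, *Ncmap*, *Sox10*, *S100b* and *Ngfr*. They were found by symbol among the 53819 genes listed in the count table. All 8 were among the 17496 genes that passed the filter on low counts. The list was chosen with earlier results of these data known. Shares over all genes printed beside its counts are thus background and do not test the list. RNA was sequenced from 6 FDL tendons, 3 per genotype with 1 tendon per library, at D28 after complete transection and repair. DTR ScxLin mice (Scx-Cre+; DTR F/+) carry a diphtheria toxin receptor that is switched on wherever the *Scx* promoter has driven Cre, and WT littermates (Scx-Cre-; DTR F/+) carry the same receptor allele without Cre. Mice of both genotypes were 10 to 12 weeks old at surgery and received 5 daily injections of 100 ng diphtheria toxin (DT) from D14 to D18. Both sexes were used, as stated for the study as a whole. The Cre line marks the broad *Scx* lineage, that is, all cells whose history includes *Scx* expression, and not only resident tenocytes. In the sample titles D28 is dated from depletion, and in the study's methods from surgery, as it is here.

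Schwann cells are the glia of peripheral nerves. Myelinating Schwann cells wrap large axons in compact myelin, in which basic and membrane proteins hold the layers together, and they keep cytoplasm in non-compact regions that attach the sheath to the axon and to the basal lamina. Non-myelinating (Remak) Schwann cells ensheathe bundles of small axons, and after nerve injury Schwann cells can lose myelin gene expression and take on a repair state. Tendons are innervated mainly in their sheath and surrounding tissue, so a whole-tendon sample can hold small nerves. In bulk RNA, fewer Schwann cells and less of a transcript per Schwann cell cannot be told apart.

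Genes that define Schwann cells were detected in every library, while *Pmp22*, *S100b* and *Ngfr* are also expressed outside this lineage. Endothelium can express *Prx*, so its transcripts need not come from Schwann cells alone. *Sox10*, the lineage's defining transcription factor, had at least 178 counts in each library. Markers of oligodendrocytes, which make the myelin of the central nervous system and share *Mbp* and *Mag*, were near 0. Their 6 genes summed to between 0.0448 and 0.267 CPM (counts scaled to the TMM-adjusted total of the library) per library, none passed the filter, and *Olig2* had no count in any library. The 5 melanocyte genes, which mark the other *Sox10*-expressing derivative of the neural crest that the skin can hold, summed to between 0.688 and 2.07 CPM.

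The myelin genes among the 8, and also *Sox10* and *Ngfr*, had lower means in tendons of DTR ScxLin mice than of WT mice. Only *Prx* and *Ncmap* separated the genotypes. Of the 8 genes, 7 were fitted lower and 1, *S100b*, higher, with a median log2 fold change of -0.36, against 0.0082 over all 17496 genes tested. This median was -0.90 without DTR ScxLin replicate 3, -0.19 without DTR ScxLin replicate 1 and -0.71 with skeletal muscle transcripts as a covariate. By edgeR's quasi-likelihood test with Benjamini-Hochberg adjustment over the whole table, none passed the threshold of 0.05, as was so for all genes (0% passed), with a smallest adjusted p of 0.199. At an unadjusted p under 0.05, 3 of the 8 were lower (*Prx*, *Ncmap* and *Mbp*), against 5.45% of all genes, and 0 were higher, against 5.52%. The genotypes did not overlap in 2 of the 8, *Prx* and *Ncmap*, with all DTR ScxLin values under the WT values (7.85% of all genes), and in 0 of the 8 with all of them over the WT values (8.96% of all genes). The same 2 genes were without overlap in the authors' own normalized counts. DESeq2's Wald test, the study's tool, passed *Prx*, *Ncmap* and *Mbp* as lower at an adjusted p of 0.05, against 1.53% of 17564 genes, and none as higher, against 1.12%. With WT replicate 2, WT replicate 3 or DTR ScxLin replicate 1 left out, DESeq2 passed 0 of the 8. limma-voom passed 0 of the 8 with all libraries.

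**Figure D1:**
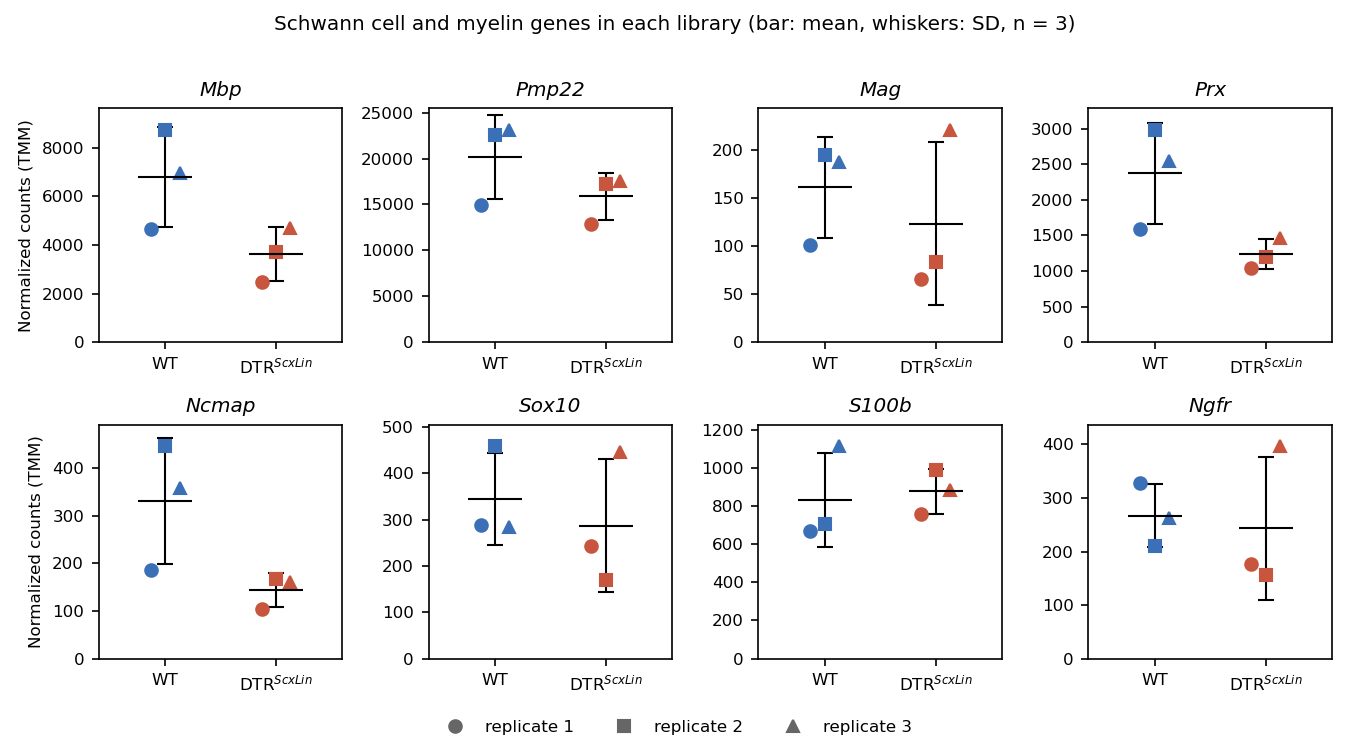
TMM-normalized counts (vertical axis, linear from 0, a scale per gene) of the 8 genes in the 3 WT (blue) and 3 DTR ScxLin (red) libraries, with marker shape for the replicate number, a bar at the mean and whiskers for the SD. *Prx* and *Ncmap* are the genes whose groups do not overlap, *Mbp* overlaps by 1 pair of libraries (DTR ScxLin replicate 3 at 4697, WT replicate 1 at 4672), and DTR ScxLin replicate 3 is the highest of all libraries in *Mag* and *Ngfr*.

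Periaxin (*Prx*) is a scaffold protein that links the Schwann cell cortex to the dystroglycan complex and so to the basal lamina. Its TMM-normalized counts, which are scaled to the mean library size and given throughout in the order of replicates 1 to 3, were 1591, 2986 and 2539 (WT) against 1047, 1199 and 1461 (DTR ScxLin). The highest DTR ScxLin library was thus below the lowest WT library, although WT replicate 1 stood closer to the DTR ScxLin libraries than to the other WT libraries. The DTR ScxLin mean, 1236 ± 209.6, was 0.521 of the WT mean, 2372 ± 713 (SD, n = 3 each). The log2 fold change was -0.94 (SE 0.25, 95% interval -1.55 to -0.34), and edgeR's unadjusted p was 0.00859, adjusted p 0.349. DESeq2's adjusted p was 0.00407, within a range of 0.00407 to 0.838 over the alternatives planned (another tool, scaling, filter, term or set of libraries), and of 1.96e-06 to 0.204 in DESeq2 with single libraries left out. The log2 fold change lay between -1.16 and -0.74 in all of them. In the GENCODE vM21 annotation *Prx* shares 300 of its 5579 exonic bases with the antisense gene *Gm15541*. The strand setting of the counting is not given in the sources used here, so how reads in the shared bases were assigned is unknown.

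*Ncmap* encodes a small membrane protein of non-compact myelin. It had 187, 445 and 359 normalized counts (WT) against 103, 167 and 161 (DTR ScxLin). As with *Prx*, no DTR ScxLin library reached the lowest WT library, which was again replicate 1. The DTR ScxLin mean, 143.9 ± 35.5, was 0.436 of the WT mean, 330.3 ± 132 (SD, n = 3 each), with a log2 fold change of -1.20 (SE 0.35) and an adjusted p of 0.353 in edgeR. DESeq2 gave an adjusted p of 0.0177, within a range of 0.0177 to 0.838 over the alternatives planned and of 0.000157 to 0.43 in DESeq2 with single libraries left out.

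RefSeq promoter windows, 300 bases long and mostly upstream of the annotated start on GRCm38.p6, were given for 6 of the 8 genes, in 12 windows. The windows of *Prx* (chr7:27499074-27499373, plus strand) and of 1 of the 2 starts of *Ncmap* (chr4:135398178-135398477, minus strand) are shown because these were the genes whose groups did not overlap. Capitals mark matches to the core GTGGGNG of the EGR family of transcription factors, to which the myelin regulator EGR2 belongs, searched on both strands.
Prx: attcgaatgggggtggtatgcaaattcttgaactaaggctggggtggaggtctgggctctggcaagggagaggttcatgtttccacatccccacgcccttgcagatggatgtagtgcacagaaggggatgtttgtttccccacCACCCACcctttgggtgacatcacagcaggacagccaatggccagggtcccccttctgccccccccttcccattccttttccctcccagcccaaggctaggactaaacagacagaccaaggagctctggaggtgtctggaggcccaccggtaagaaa
Ncmap: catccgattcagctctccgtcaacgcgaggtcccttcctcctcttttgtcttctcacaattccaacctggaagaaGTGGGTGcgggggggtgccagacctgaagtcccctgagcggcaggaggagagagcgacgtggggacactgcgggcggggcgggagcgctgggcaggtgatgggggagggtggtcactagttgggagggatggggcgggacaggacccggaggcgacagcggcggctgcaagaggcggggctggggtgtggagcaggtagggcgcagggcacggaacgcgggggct
In the *Prx* window the match lies on the opposite strand at bases -107 to -101 from the start, and in the *Ncmap* window on the gene's strand at bases -175 to -169. The core was found in 4 of the 12 windows, from 3 genes (*Prx*, *Ncmap* and *Mag*), against 31.6% of 32851 windows of the same length. The SOX cores ACAAAG and ACAATG, searched likewise, were found in 2 of the 12 windows, both of *Mag* and overlapping each other, against 28.6% of all windows. The TATA box letters TATAAA were in 0 of the 12, against 13.6%. These are letter matches only, with frequencies near the background.

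The remaining gene of non-compact myelin was *Mag*, whose product is an adhesion molecule of the membrane that faces the axon. Its normalized counts were 100.5, 195 and 187 (WT) against 66.0, 83.2 and 221 (DTR ScxLin). DTR ScxLin replicates 1 and 2 were below each WT library, and replicate 3 was above each of them. The log2 fold change was -0.38 (SE 0.50, edgeR adjusted p = 0.806), and with single libraries left out it ranged from -0.086 (without DTR ScxLin replicate 1) to -1.11 (without DTR ScxLin replicate 3), with -0.16 without DTR ScxLin replicate 2 and -0.22 without WT replicate 2. *Mag* had the lowest counts of the 8 genes, and counting error alone gave a coefficient of variation of 12.5% at its lowest library, below the spread between libraries.

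*Mbp* and *Pmp22* encode proteins of compact myelin. Myelin basic protein, which joins the cytoplasmic faces of the membrane, had 4672, 8749 and 6984 normalized counts (WT) against 2481, 3728 and 4697 (DTR ScxLin). The groups overlapped only between DTR ScxLin replicate 3 and WT replicate 1, which were nearly equal. The DTR ScxLin mean, 3635 ± 1111, was 0.534 of the WT mean, 6802 ± 2044 (SD, n = 3 each), with a log2 fold change of -0.90 (SE 0.32), an unadjusted p of 0.0325 and an adjusted p of 0.431 in edgeR. DESeq2's adjusted p was 0.0219, within a range of 0.0219 to 0.839 over the alternatives planned and of 0.00838 to 0.486 in DESeq2 with single libraries left out.

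*Pmp22*, a membrane protein whose gene dosage is critical for myelin stability in peripheral nerve and which fibroblasts and other cells also express, had by far the highest counts. They were 14919, 22559 and 23143 (WT) against 12918, 17250 and 17509 (DTR ScxLin). All 3 DTR ScxLin libraries were below WT replicates 2 and 3, but 2 of them were above WT replicate 1. The log2 fold change was -0.35 (SE 0.20, edgeR adjusted p = 0.535).

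The 3 genes that do not encode myelin proteins showed no separation of the genotypes. *Sox10* had 288, 459 and 285 normalized counts (WT) against 243, 170.3 and 447 (DTR ScxLin). Its highest DTR ScxLin library was above 2 WT libraries, and the log2 fold change was -0.26 (SE 0.38, 95% interval -1.17 to 0.64, edgeR adjusted p = 0.830). *S100b*, a calcium-binding protein of Schwann cells that chondrocytes and adipocytes also make, had 668, 706 and 1113 (WT) against 756, 989 and 886 (DTR ScxLin). The 3 DTR ScxLin libraries lay within the WT range, with a log2 fold change of 0.08 (SE 0.21, 95% interval -0.42 to 0.58, edgeR adjusted p = 0.915). *Ngfr*, the low-affinity neurotrophin receptor that marks non-myelinating and repair Schwann cells, had 328, 210.0 and 262 (WT) against 177, 155.9 and 397 (DTR ScxLin). DTR ScxLin replicates 1 and 2 were below the WT libraries and replicate 3 was above them, with a log2 fold change of -0.13 (SE 0.38, 95% interval -1.03 to 0.77, edgeR adjusted p = 0.925). The direction fitted for these 3 genes changed with the processing: it turned in each of them with a keratinocyte transcript covariate and with some single libraries left out. The intervals leave room for differences of the size fitted for *Mbp* in *Sox10* and *Ngfr*, so these data do not show that they were unaffected.

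Levels were compared between genes as normalized counts per kilobase of merged GENCODE vM21 exons, a length that may differ from the one used in the counting. In WT tendons the order was *Pmp22* (9377 per kilobase), *Mbp* (837), *S100b* (559), *Prx* (425), *Ncmap* (154), *Sox10* (124), *Ngfr* (77.4) and *Mag* (65.9). The WT ranges of *Pmp22* and *Mbp*, of *Prx* and *Ncmap*, and of *Sox10* and *Ngfr* did not overlap. Those of the other neighbours in this order did, although *Mbp* was above *S100b* in each WT library. In DTR ScxLin tendons the range of *Prx*, 188 to 262 per kilobase, was below that of *S100b*, 509.7 to 667, whereas in WT tendons the ranges of these genes overlapped (285 to 535 and 450.1 to 750.1 per kilobase).

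The 5 genes of myelin proteins had the same libraries at the bottom of each genotype. DTR ScxLin replicate 1 was the lowest of all 6 libraries, and WT replicate 1 the lowest WT library, in *Mbp*, *Pmp22*, *Mag*, *Prx* and *Ncmap*. In *Sox10* and *Ngfr* the lowest library was DTR ScxLin replicate 2, and in *S100b* it was WT replicate 1. Likeness to *Prx* was described by Pearson's r of log2 CPM over the 6 libraries among 14408 genes whose normalized counts averaged 50 or more. This r includes the difference between genotypes and differences in tissue makeup between libraries, while library size was scaled out in the CPM. It was 0.979 for *Ncmap* (rank 10), 0.971 for *Mbp* (rank 13), 0.885 for *Pmp22*, 0.750 for *Mag*, 0.588 for *Sox10*, 0.215 for *Ngfr* and 0.0384 for *S100b*. The 8 genes most like *Prx* were *Cobll1* (0.999), *Ubqln4* (0.992), *Pllp* (0.990), *Raph1* (0.988), *Dgka* (0.985), *Sox7* (0.984), *Fam193b* (0.982) and *Slc36a2* (0.982). Of these, *Pllp*, a proteolipid of compact myelin, belongs to the Schwann lineage list. With 6 libraries, 158 of the ranked genes (1.1%) had an r of at least 0.9, among them 5 of the 41 Schwann lineage genes ranked.

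Scaled to *Sox10* within each library, the myelin genes did not separate the genotypes. The ratio of *Prx* to *Sox10* counts was 5.52, 6.51 and 8.92 (WT) against 4.31, 7.04 and 3.27 (DTR ScxLin). For *Mbp* it was 16.2, 19.1 and 24.5 (WT) against 10.2, 21.9 and 10.5 (DTR ScxLin). In both ratios DTR ScxLin replicate 2, in which *Sox10* was lowest, lay within the WT range and the other DTR ScxLin libraries lay below it.

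A wider list of 45 genes of the Schwann lineage, of which 43 passed the filter, was read in the same fit. None passed an adjusted p of 0.05 in edgeR, 30 were fitted lower and 13 higher, and the median log2 fold change was -0.22. At an unadjusted p under 0.05, 3 were lower (*Gjb1*, *Pllp* and *Gdnf*), against 5.45% of all genes. Another 4 were higher (*Egr2*, *Cntn2*, *Scn7a* and *Gap43*), against 5.52%. The genotypes did not overlap in 2 of the 43 with DTR ScxLin lower (7.85% of all genes) and in 3 with DTR ScxLin higher (8.96%). These counts lie near those shares. By role, the median was -0.82 over 5 other genes of compact myelin, all fitted lower, and -0.78 over 3 enzymes of myelin lipids. It was -0.24 over 10 genes of non-compact myelin, node and adhesion (9 lower), -0.35 over 5 transcription factors and -0.12 over 10 ligands and receptors. Over 10 genes listed for non-myelinating and immature Schwann cells it was 0.16 (7 higher). Whether transcripts of that role came from Schwann cells alone was not tested. Its *Gpm6b* and *Scn7a* averaged 9469 and 2701 normalized counts over all libraries, against 315 for *Sox10*.

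**Figure D2:**
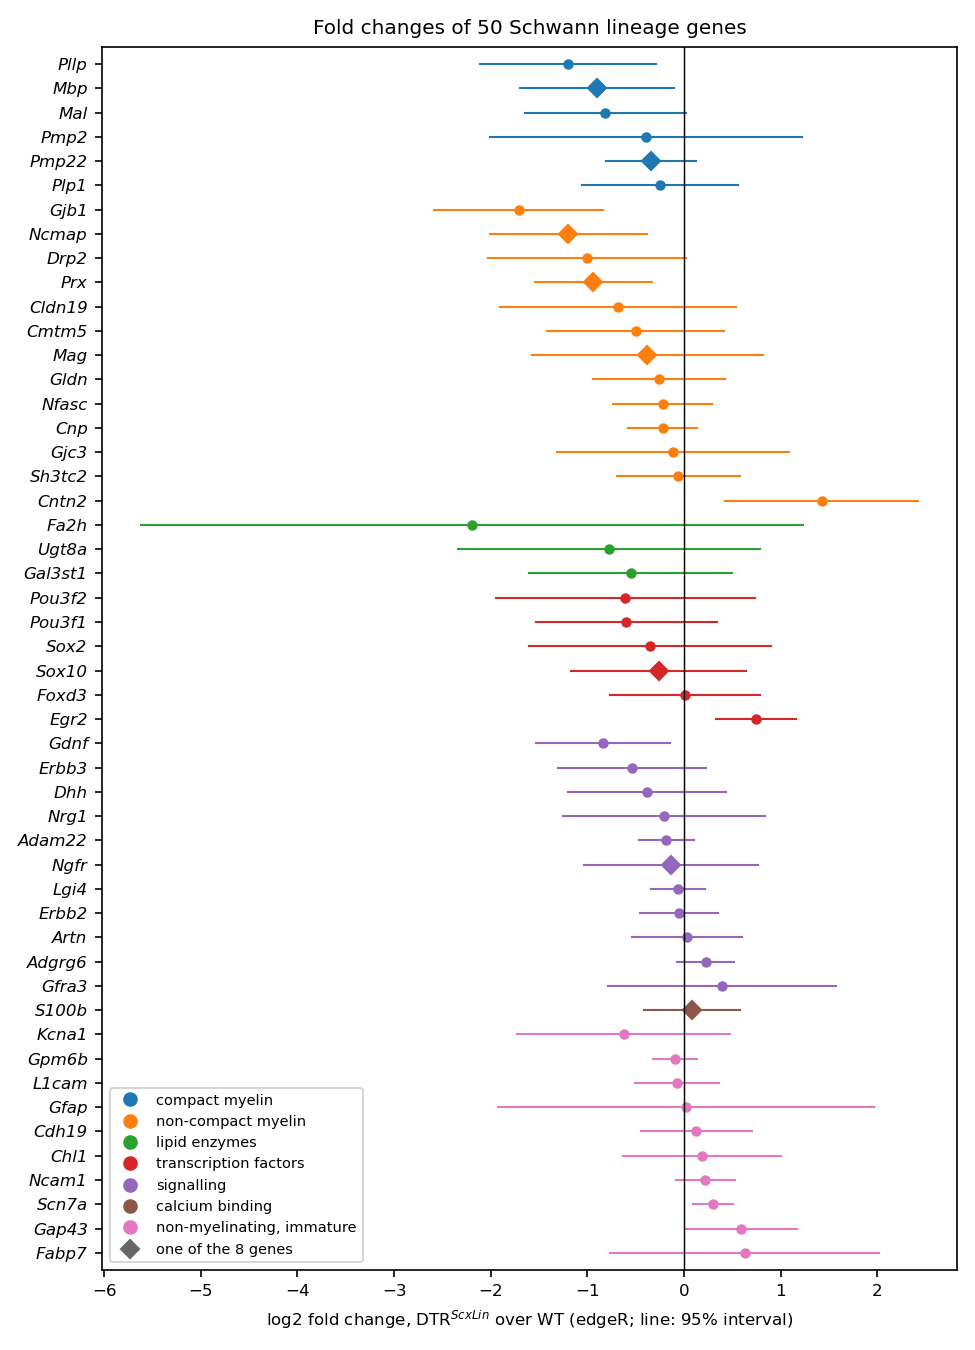
Log2 fold changes of DTR ScxLin over WT from edgeR (horizontal axis) with 95% intervals for the 8 genes (diamonds) and 42 further genes of the Schwann lineage (circles), coloured and ordered by role. The compact myelin genes drawn all lie below 0, *Gjb1* has the lowest value of the non-compact genes at -1.71, and *Egr2*, *Scn7a* and *Gap43* lie above 0.

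*Gjb1*, the gap junction protein connexin 32 of non-compact myelin, had 33.5, 61.2 and 44.7 normalized counts (WT) against 14.4, 10.5 and 17.5 (DTR ScxLin). Its groups did not overlap, and its log2 fold change of -1.71 (SE 0.38, edgeR adjusted p = 0.274) rested on few counts, with a minimum of 11 in a library. *Nfasc*, the adhesion molecule of the node and paranode, had the highest counts of its role, and its groups overlapped (-0.22, SE 0.22).

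*Egr2*, the transcription factor that drives myelination and which immune and other injury-responding cells also express, lay in the opposite direction to the myelin genes. It had 448, 369 and 288 normalized counts (WT) against 581, 679 and 590 (DTR ScxLin). The lowest DTR ScxLin value exceeded the highest WT value, with a log2 fold change of 0.74 (SE 0.18, edgeR adjusted p = 0.300). *Scn7a*, a sodium channel of non-myelinating Schwann cells, had 2401, 2546 and 2327 (WT) against 3135, 3101 and 2698 (DTR ScxLin). Its log2 fold change was 0.30 (SE 0.09, edgeR adjusted p = 0.354), again without overlap. *Gap43*, a growth-associated protein of axons and immature Schwann cells, had 83.2, 77.2 and 103.9 (WT) against 111, 126 and 161 (DTR ScxLin), a log2 fold change of 0.59 (SE 0.25, edgeR adjusted p = 0.452) without overlap. *Gpm6b*, the gene with the highest counts of that role, had a log2 fold change of -0.09 (SE 0.10).

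*Gdnf*, a neurotrophic ligand, was the remaining gene without overlap among those that passed the filter, with 173, 119 and 97.7 normalized counts (WT) against 90.7, 65.0 and 61.7 (DTR ScxLin) (log2 fold change -0.84, SE 0.30, edgeR adjusted p = 0.414). *Lgi4*, a secreted ligand that Schwann cells need for myelination and the gene with the highest counts of its role, had a log2 fold change of -0.06 (SE 0.12) and shares 1882 exonic bases with the antisense gene *Fxyd3*. DESeq2 passed 5 of the list, *Gjb1*, *Drp2* and *Pllp* as lower (1.53% of all genes) and *Egr2* and *Cntn2* as higher (1.12%). *Drp2*, *Pllp* and *Cntn2* were named after their values were seen. *Cntn2* encodes an adhesion molecule of the juxtaparanode. Dystrophin-related protein 2 (*Drp2*), the partner of periaxin at the Schwann cell membrane, had 1096, 2208 and 1768 normalized counts (WT) against 489.5, 1165 and 877 (DTR ScxLin). Only DTR ScxLin replicate 2 exceeded WT replicate 1, and the log2 fold change was -1.0025 (SE 0.41, edgeR adjusted p = 0.462).

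**Figure D3:**
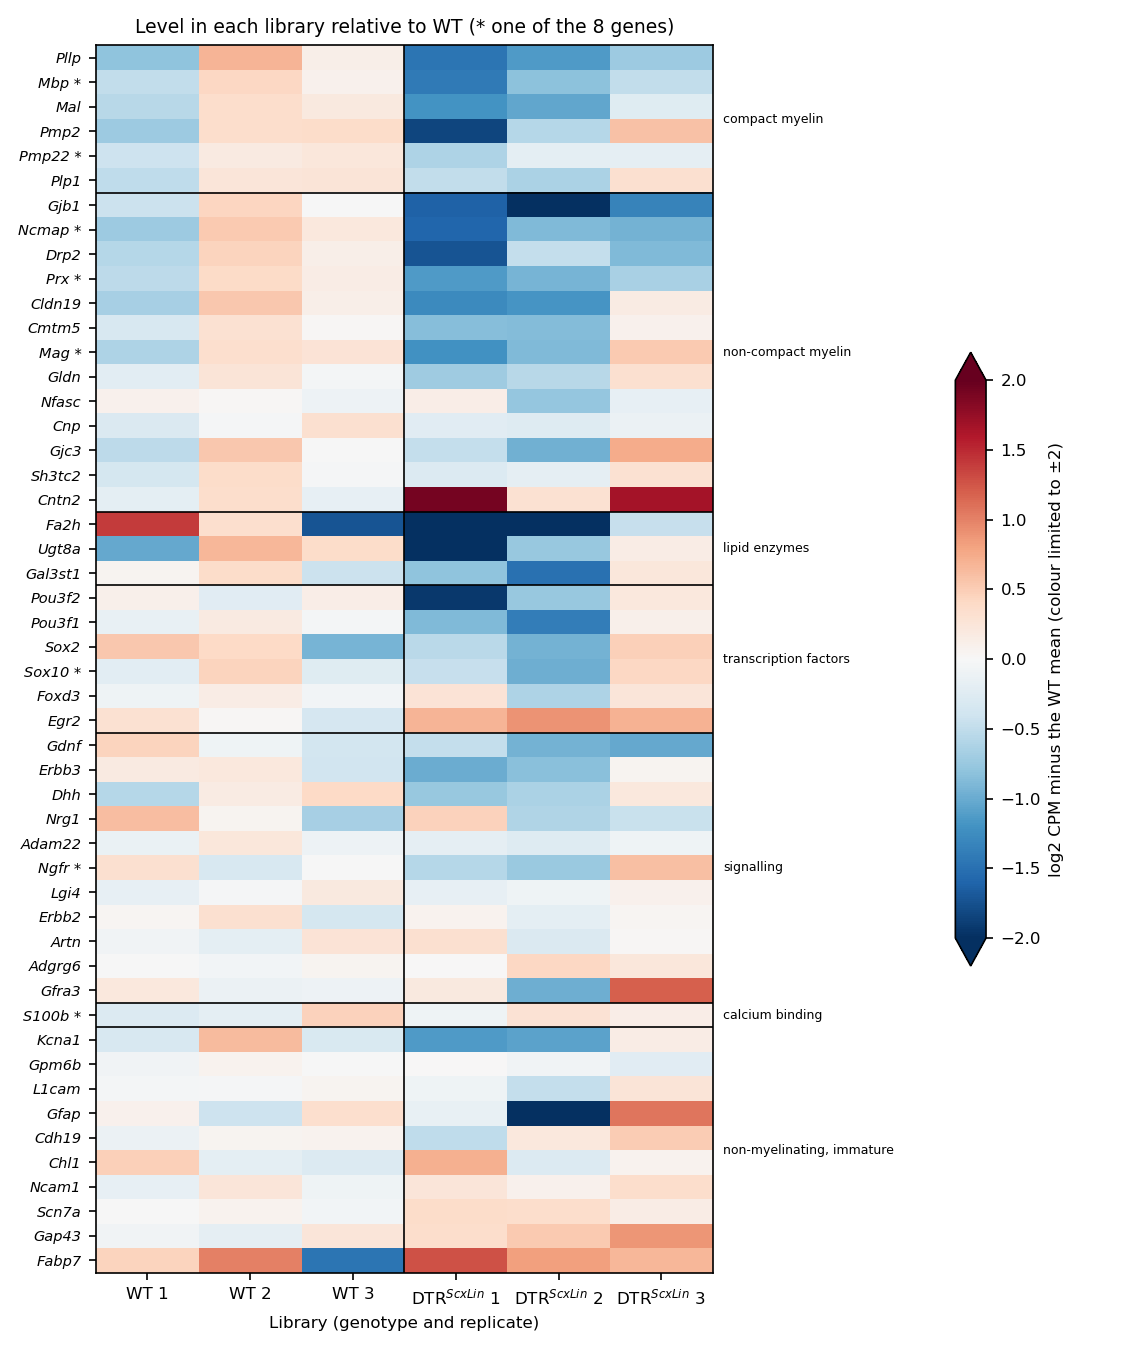
Log2 CPM of each library minus the mean of the WT libraries (colour, limited to ±2) for the 8 genes (asterisks) and the 42 further Schwann lineage genes, in rows grouped by role and columns by library. Most rows of compact and non-compact myelin are blue in DTR ScxLin replicates 1 and 2, fewer in replicate 3, and WT replicate 1 is also below the WT mean in most of them.

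The libraries differed in tissue other than nerve, and those values stand beside the myelin genes here. Over all genes the first principal component (62.8% of variance) had WT replicates 1 and 2 at one end (-89.9 and -75.8). WT replicate 3 with DTR ScxLin replicates 1 and 2 stood at the other (52.9, 78.8 and 58.5). DTR ScxLin replicate 3 lay between, at -24.4, on the side of WT replicates 1 and 2. This component thus did not separate the genotypes. The 15 skeletal muscle genes summed to between 15891 and 22380.2 CPM in WT libraries and to 2950.3, 20399.8 and 5113 CPM in DTR ScxLin replicates 1 to 3. All 15 were fitted lower, 2 of them without overlap (7.85% of all genes) and 0 at an unadjusted p under 0.05 (5.45%). *Myh1*, the highest, had between 16786 and 176672 normalized counts. The muscle sum was low only in DTR ScxLin replicates 1 and 3, so it partly follows genotype and a fit with both cannot separate them well. With summed muscle CPM as a covariate the log2 fold changes were -0.96 (SE 0.40) for *Prx*, -1.0003 (SE 0.48) for *Ncmap* and -0.79 (SE 0.52) for *Mbp*. They were -0.24 (SE 0.27) for *Pmp22* and -0.67 (SE 0.77) for *Mag*. In the same fit they were -0.76 (SE 0.52) for *Sox10*, -0.45 (SE 0.57) for *Ngfr* and 0.19 (SE 0.29) for *S100b*. None of the 8 genes had an unadjusted p under 0.05 there, against 3.26% of all genes lower and 3.19% higher. The part of muscle tissue in these levels was otherwise not tested.

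The 10 keratinocyte genes, which mark skin, summed to 3152, 1877 and 28.6 CPM (WT) against 15.4, 26.7 and 283 CPM (DTR ScxLin). With this sum as a covariate, the log2 fold change was -0.93 for *Prx*, -1.23 for *Ncmap*, -0.81 for *Mbp*, -0.41 for *Pmp22* and -0.25 for *Mag*, while it was 0.0706 for *Sox10*, 0.12 for *Ngfr* and -0.14 for *S100b*. In that fit 2 of the 8 genes were lower at an unadjusted p under 0.05, against 2.67% of all genes. The part of skin in these levels was otherwise not tested. *Fa2h*, the fatty acid hydroxylase of myelin lipids that skin also expresses, had 1606, 762 and 182 normalized counts (WT) against 34.0, 83.2 and 441 (DTR ScxLin). Its libraries were thus ordered much as the keratinocyte sum was.

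The 9 adipocyte genes summed to 154, 204 and 233 CPM (WT) against 103, 165 and 116 CPM (DTR ScxLin). All 9 were fitted lower, 8 of them at an unadjusted p under 0.05 (5.45% of all genes) and without overlap (7.85%), and 5 passed in DESeq2 (1.53%). No gene of the muscle, keratinocyte or adipocyte lists was at 0 in all libraries. *Adipoq*, made almost only by adipocytes, had 96.4, 187 and 273 normalized counts (WT) against 17.5, 62.2 and 26.7 (DTR ScxLin), while *Fabp4*, which endothelium also expresses and which had the highest counts of the list, overlapped between the groups. The part of adipose tissue in the lower myelin levels was not tested. The 8 endothelial genes, a list added after values were seen because endothelium can express *Prx*, summed to between 576 and 743 CPM in WT and between 613 and 662 CPM in DTR ScxLin libraries. Their median log2 fold change was -0.05, with 6 fitted lower and 2 higher, from -0.39 to 0.20. In edgeR 0 had an unadjusted p under 0.05, and *Pecam1* overlapped between the groups (-0.15, SE 0.13). The part of endothelium in the level of *Prx* was not tested.

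**Figure D4:**
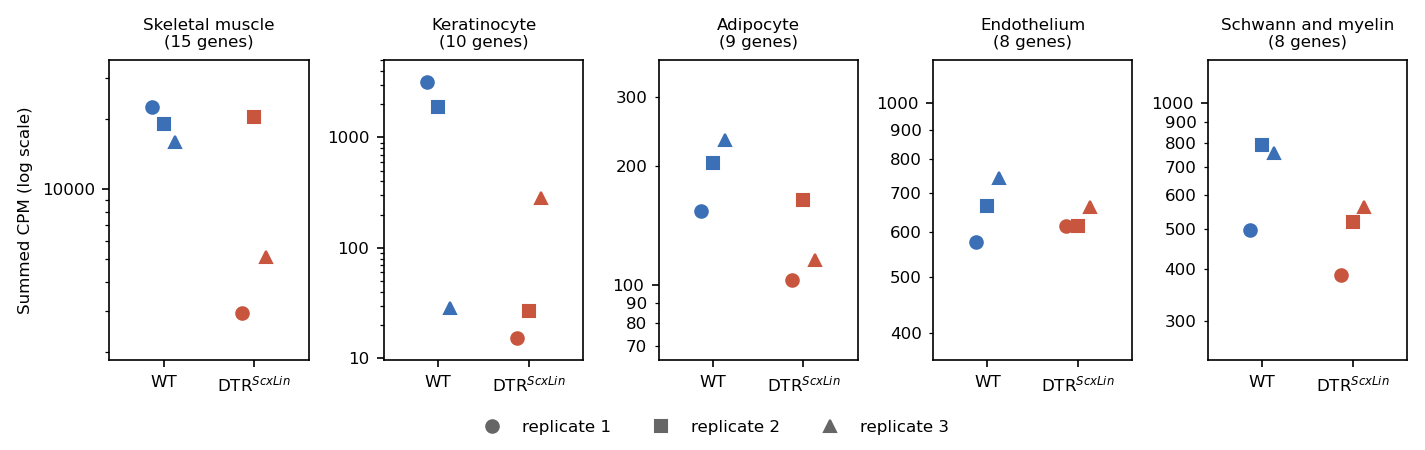
Summed CPM per library (vertical axes, log scale, a range per panel) of 4 marker lists of other cell types and of the 8 Schwann cell and myelin genes, for WT (blue) and DTR ScxLin (red) libraries with marker shape for the replicate number. The keratinocyte sums of WT range from 28.6 to 3152 CPM, DTR ScxLin replicate 2 has muscle transcripts in the range of WT, and the 8 genes sum to 496, 791 and 760 CPM (WT) against 388, 517 and 562 CPM (DTR ScxLin), with *Pmp22* holding most of the sum.

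*Scx*, whose lineage was targeted, had 2202, 2703 and 3064 normalized counts (WT) against 3476, 3407 and 3532 (DTR ScxLin), with a log2 fold change of 0.39 (SE 0.12, edgeR adjusted p = 0.371), and since cells can express it anew after depletion it does not check the genotype labels. The 7 tendon genes, which check the labelled tissue, summed to between 21667 and 26028 CPM in WT and between 26493 and 33146 CPM in DTR ScxLin libraries. *Col1a1* was highest, and 3 of 7 were higher at an unadjusted p under 0.05 (5.52% of all genes). The 7 cartilage genes, led by *Acan*, summed to between 206 and 293 CPM in WT and between 169.6 and 299 CPM in DTR ScxLin libraries. The 7 lymphocyte genes, led by *Cd2*, summed to between 5.62 and 12.4 CPM in WT and between 5.46 and 8.58 CPM in DTR ScxLin libraries. Total counts ranged from 42744138 to 48854310 per library, and counting error at the lowest library was between 0.893% and 12.5% of the value for the 8 genes, so the 3 tendons per genotype set the precision.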

How the data were processed

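Bulk RNA-seq was analysed from 6 FDL tendons at D28, 3 DTR ScxLin and 3 WT, made from 200 ng total RNA each. The study's methods name a stranded mRNA kit, and the labels add another kit, so the library type is uncertain. The authors demultiplexed reads with bcl2fastq 2.19.0, cleaned them with FastP 0.20.0, counted them per gene with subread featureCounts 1.6.4 and deposited the raw counts as whole numbers. The aligner, genome build and strand setting are not given in the sources used here. The authors also deposited a normalized signal table, which was checked to be each count column divided by its DESeq2 size factor (0.973 to 1.06). DESeq2 1.22.1 is named in the submitters' processing notes. No authors' comparison columns were used.

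The main test came from edgeR 4.0.16 under R 4.3.3 (filterByExpr, TMM, robust quasi-likelihood fit with genotype as the single term, Benjamini-Hochberg over 17496 genes, threshold 0.05). DESeq2 1.42.0, limma 3.58.1 (voom), other scalings and filters, a replicate block, muscle and keratinocyte covariates and each library left out were alternatives. Log2 CPM used a prior count of 0.5. The members and lists were chosen with earlier results of these data known, and the endothelial list and DESeq2 with each library left out were added after values were seen. Named genes were the 8 members, in the wider list each gene without overlap that passed the filter and the highest-count gene of each role, the 8 genes most like *Prx*, and in other lists the highest-count gene and markers at 0. The fit was tested on simulated data. Replicates differed by a chi-square of 36.6 to 189.8 per degree of freedom, so none was a duplicate. The labels call the tendons biological samples. A gene of the wider list counts in its totals but is not reported here by name.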

Additional observations from a re-analysis of the deposited data

How the results depend on the processing

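Under edgeR and limma-voom 0 of the 8 genes passed in any alternative, and DESeq2's Wald test passed 3. With DESeq2 and 1 library left out, added after the data were seen, it passed 3 without WT replicate 1 (0.681% of all genes lower), 2 without DTR ScxLin replicate 2 (6.17%) or 3 (1.48%), and 0 without WT replicate 2 (0.367%), WT replicate 3 (2.86%) or DTR ScxLin replicate 1 (0.709%). The median log2 fold change of the 8 ranged from -0.90 (without DTR ScxLin replicate 3) to -0.19 (without DTR ScxLin replicate 1) with single libraries left out. In the wider Schwann list DESeq2 passed 5 genes, and edgeR passed 0 to 1 with single libraries left out (*Cntn2* without DTR ScxLin replicate 2). The median of that list was -0.54 with the skeletal muscle covariate and ranged from -0.60 (without DTR ScxLin replicate 3) to -0.0816 (without DTR ScxLin replicate 2) with single libraries left out. With the keratinocyte covariate the fold change turned to 0.0706 for *Sox10*, -0.14 for *S100b* and 0.12 for *Ngfr*. With single libraries left out it ranged from -0.73 to 0.01 for *Sox10* (above 0 without WT replicate 2, 0.0015, or DTR ScxLin replicate 2, 0.0066), from -0.0518 to 0.35 for *S100b* and from -0.68 to 0.11 for *Ngfr*. The cause of these changes was not tested. *Prx*, *Ncmap* and *Mbp* were fitted lower in each alternative run. With single libraries left out, 2 to 5 of the 8 genes were lower at an unadjusted p under 0.05 in edgeR, with 5 without DTR ScxLin replicate 3 (4.42% of all genes lower), while the share of all genes lower ranged from 2.76% to 9.68%.

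With the replicate number as a block, 0 of the 8 passed, the median was -0.43, and 4 of the 8 were lower at an unadjusted p under 0.05 (5.7% of all genes). The numbers did not pair the libraries: deviations of same-numbered libraries correlated at -0.25, -0.21 and -0.73, and 0 libraries correlated best with their own number. Over all genes edgeR passed 0 in the main analysis, 1 with the block, 45 higher and 38 lower with no filter on low counts, and 103 higher and 441 lower without DTR ScxLin replicate 2, none of them among the 8 genes.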

Other observations

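Genes of neurons and axons were read beside the glial ones. Of 15 such genes 7 passed the filter, 4 were fitted lower and 3 higher, and the median log2 fold change was -0.08. The list summed to 39.0, 48.8 and 57.6 CPM in WT and 38.0, 64.0 and 62.6 CPM in DTR ScxLin replicates 1 to 3. *Chat* and *Syt1* had no count in any library. *Stmn2*, a growth-associated tubulin regulator with the highest counts of the list, had 560.3, 722 and 1209 normalized counts (WT) against 689.5, 678 and 784 (DTR ScxLin) (-0.21, SE 0.28, edgeR adjusted p = 0.805). *Prph*, which encodes the intermediate filament peripherin of peripheral neurons, was named after its values were seen. It had 424, 474 and 497 (WT) against 444, 1062 and 1329 (DTR ScxLin). Replicate 1 of DTR ScxLin was thus within the WT range and the other DTR ScxLin libraries were above it (log2 fold change 1.02, edgeR adjusted p = 0.452). DESeq2's Wald test passed *Prph* as higher at an adjusted p of 0.05, against 1.12% of all genes, and no other gene of the list. The other intermediate filament genes of the list had few counts per library: 1 to 18 for *Nefl*, 3 to 22 for *Nefm* and 3 to 10 for *Nefh*. Whether the *Prph* and *Stmn2* transcripts came from neurons or axons alone was not tested.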
